A study of Mus musculus with 16 samples.

Results

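The genes described here were 10 members of the BCL2 family, which set whether a cell survives or enters apoptosis, in duodenal ILC2, the group 2 innate lymphoid cells, of mice. They were chosen by name, as the rows of the count table with the symbols Bcl2, Bcl2l1, Mcl1, Bcl2a1b, Bcl2a1d, Bax, Bak1, Bcl2l11, Bbc3 and Pmaip1. All 10 were found among the 53465 genes of the table. Of these, 7 passed the filter on low counts, as did 11742 genes in all, and Bcl2a1b, Bak1 and Bbc3 did not.

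The study asked how leukotrienes, IL-25 and IL-33 act on ILC2 of the intestine at rest, and sequenced RNA of 16 libraries, 4 for each of 4 genotypes. ILC2 are tissue-resident lymphocytes that make type 2 cytokines. All mice were C57BL/6, 6 to 10 weeks old, untreated and free of specific pathogens, and all were homozygous for the Smart13 reporter at Il13. The genotypes were wild type (WT), Alox5 KO, which lacks the 5-lipoxygenase that starts leukotriene synthesis, Il25 KO, which lacks the cytokine IL-25, and St2 KO, which lacks the IL-33 receptor subunit encoded by Il1rl1. The Il25 KO and St2 KO mice were also homozygous for the Yarg reporter at Arg1, an allele absent from WT and Alox5 KO, so effects of this allele and of either knockout cannot be told apart against WT. Cells came from the proximal 5 cm of the small intestine, and how ILC2 were gated is not stated in the labels. Whether the libraries of a genotype came from different mice is not labelled either, so the p-values reflect variation among libraries, which may be technical.

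Apoptosis through mitochondria starts when the effector proteins BAX and BAK open the outer mitochondrial membrane. BCL2, BCL-XL (from Bcl2l1), MCL1 and the A1 proteins (from the Bcl2a1 genes) hold the effectors in check, and the BH3-only proteins BIM (from Bcl2l11), PUMA (from Bbc3) and NOXA (from Pmaip1) bind and block these guardians. In lymphocytes the balance is set in part by survival cytokines, which maintain guardians and restrain BIM.

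The libraries held 2086864 to 3216937 counts. The summed level of 12 ILC2 marker genes was 5520 to 6984 CPM (counts scaled to the library's column total), and all 12 were detected in every library. The description labels divide the libraries into sets: libraries 1 and 2 of every genotype are TS, while libraries 3 and 4 are TT for WT and Alox5 KO but TY for Il25 KO and St2 KO. The TY libraries held 982 to 1682 counts of Xist, the RNA of the inactive X chromosome, against at most 7 in the other sets. Ddx3y, a Y chromosome gene, had 0 to 2 counts in TY, 877 to 1630 in TS and 709 to 1132 in TT. By these genes the TY libraries were female and the TS and TT libraries male, so sex and set cannot be told apart in TY. Fits with no set term mix the sexes within Il25 KO and St2 KO. WT shares only the TS set with Il25 KO and St2 KO. The set was a term in the fits unless stated. Alox5 had 4.78 to 12.0 CPM in the Alox5 KO libraries and 59.6 to 178 CPM in the others, and Il25 had 0 counts in all 16, so it checks no label. Il1rl1 had 126 to 208 CPM in the libraries labelled St2 KO, overlapping WT (169 to 246 CPM). Which part of Il1rl1 the allele removes is not labelled, so gene counts do not check that genotype, and St2 KO is used here as the labels give it. Summed B and plasma cell markers were low in Alox5 KO 1, Alox5 KO 2 and St2 KO 1, at 161, 215 and 145 CPM, against 557 to 1032 CPM in the other libraries.

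The 2 A1 genes need care, because their transcripts are nearly identical. Bcl2a1b (chr9:89199209-89207827, plus strand, GRCm38) and Bcl2a1d (chr9:88723285-88731914, minus strand) each have 516 coding bases in the GENCODE annotation, of which 510 (98.8%) are the same. The first 90 coding bases of both, from GENCODE transcripts of that build, are shown because they hold 2 of the 6 differences, in capitals.
Bcl2a1b: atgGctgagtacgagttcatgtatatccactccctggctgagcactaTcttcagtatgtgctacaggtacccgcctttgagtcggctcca
Bcl2a1d: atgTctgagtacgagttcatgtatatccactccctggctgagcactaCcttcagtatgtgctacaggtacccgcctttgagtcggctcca
Counted from the A of the start codon, with the Bcl2a1b base first, the differences are G4T, T48C, A94C, G312A, C381G and T490A, and the longest run without one is 217 bases. Of the 50-base windows in the coding sequence, 52.7% of those of Bcl2a1b and 83.5% of those of Bcl2a1d also occur in another Bcl2a1 gene. Counting could split or lose reads from such windows, so both values are uncertain. The 2 genes were also tested as a sum with the paralogs Bcl2a1a (8 counts over all libraries) and Bcl2a1c (23 counts). The sum joins split reads but cannot restore lost ones.

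Levels of different genes are compared here only as CPM per kb of merged exon. On that scale Bcl2 (68.5 ± 10.8, SD, n = 16), Bax (63.5) and Mcl1 (62.3) stood together at the top. Bcl2l1 (21.3 ± 7.84) and Bcl2l11 (20.0) followed, then Bcl2a1d at 9.34, Pmaip1 at 5.02 and Bcl2a1b at 2.36. Bbc3 at 1.06 and Bak1 at 0.788 were lowest, so of the effectors Bax had by far the higher level. The library ranges of Bcl2, Bax and Mcl1 overlapped, as did those of Bcl2l1 and Bcl2l11 and those of Bbc3 and Bak1. Further down, Bcl2a1d (1.44 to 21.3), Pmaip1 (1.82 to 10.3), Bcl2a1b (0.447 to 5.19), Bbc3 (0 to 3.24) and Bak1 (0.165 to 2.00) all overlapped one another. Bcl2a1d also overlapped Bcl2l1 and Bcl2l11. The values rest on the annotated exon length, and reads on exon parts shared with another gene may have gone uncounted. Per kb of the longest transcript, Bax was at 91.0, Bcl2 at 87.2, Mcl1 at 62.3, Bcl2l1 at 38.0 and Bcl2l11 at 31.9. The order of Bax and Bcl2 changed, and the mean of Mcl1 lay further below both. The library ranges still overlapped, at 50.2 to 80.0 for Mcl1, 66.3 to 107 for Bcl2 and 73.0 to 110 for Bax.

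**Figure D1:**
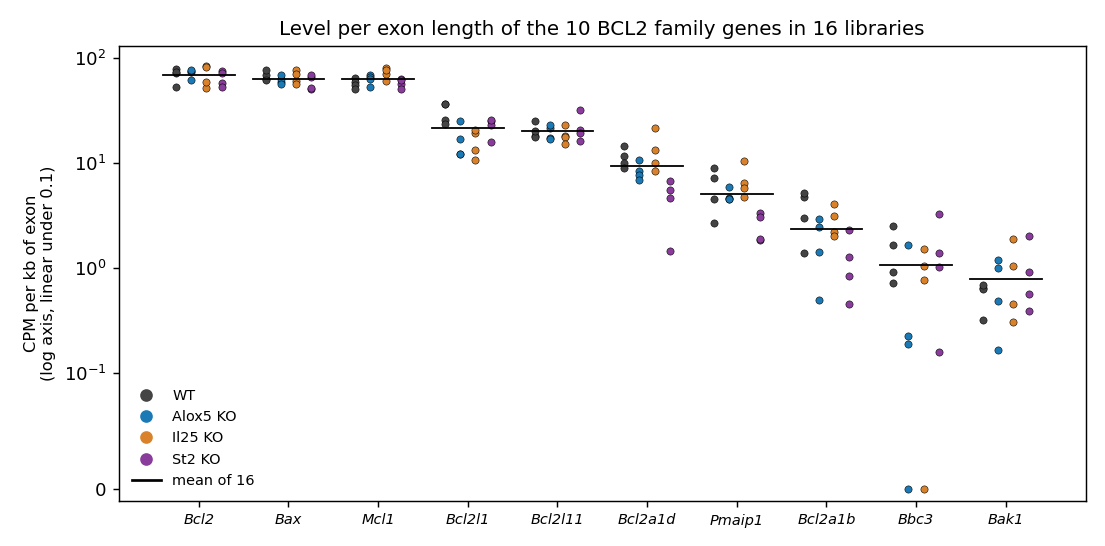
CPM per kb of merged exon (log axis, linear under 0.1) of the 10 BCL2 family genes. Each point is 1 of 16 libraries, coloured by genotype, and the line is the mean of all 16. Bcl2, Bax and Mcl1 lie highest with means of 62.3 to 68.5, and Bbc3 and Bak1 lowest with means of 1.06 and 0.788.

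Across the 4 genotypes, 1 of the 7 tested members passed the test of any genotype difference, Bcl2l1 (edgeR quasi-likelihood F test, adjusted p = 0.0387 over all tested genes). Of all 11742 tested genes, 137 passed, which is 1.17%. In the 4 comparisons of pairs of genotypes, 0 of 7 members passed at an adjusted p of 0.05 by edgeR. The background was 0.102% of genes called for Alox5 KO against WT, 0.417% for Il25 KO against WT, 0.298% for St2 KO against WT and 1.24% for Il25 KO against St2 KO. At an unadjusted p under 0.05 the members numbered 1, 1, 1 and 4 of 7 in those comparisons, where 7.17%, 9.30%, 7.49% and 11.3% of all tested genes reached it. DESeq2 called Bcl2l1 in Alox5 KO against WT and Pmaip1 in Il25 KO against St2 KO, and no other member in any pair. The edgeR shares are not the background of these DESeq2 calls. Over all alternative fits, 3 to 52 genes were called for Alox5 KO against WT and 29 to 246 for Il25 KO against St2 KO.

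Bcl2l1 (chr2:152780668-152831728, minus strand) encodes BCL-XL, a guardian that lymphocytes raise on activation and cytokine stimulation. In WT libraries 1 to 4 its level was 116.3, 106.8, 168.2 and 165.5 CPM. In Alox5 KO it was 56.1, 55.3, 114.6 and 78.1 CPM. In Il25 KO it was 89.0, 48.4, 61.1 and 93.8 CPM, and in St2 KO 72.5, 113.8, 105.2 and 117.0 CPM. All Il25 KO libraries lay below all WT libraries. Alox5 KO 3 lay above WT 2, but within each set both Alox5 KO libraries lay below both WT libraries. The St2 KO range overlapped those of the other genotypes. The group means were 139 ± 32.2 CPM in WT, 76.0 ± 27.8 in Alox5 KO, 73.1 ± 21.9 in Il25 KO and 102 ± 20.4 in St2 KO (SD, n = 4 each).

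The fitted log2 fold change of Bcl2l1 in Alox5 KO against WT was -0.86 ± 0.176 (SE; 95% interval -1.23 to -0.49), with an adjusted p of 0.0758 by edgeR, which missed the threshold. Under DESeq2 the adjusted p was 0.00334 and in a fit of only these genotypes 0.0191. Within set TS the value was -0.997 and within set TT -0.76, and the difference between the sets was 0.24 ± 0.376 (edgeR adjusted p = 1). For Il25 KO against WT the log2 fold change was -0.64 ± 0.219 (edgeR adjusted p = 0.314) and, with no set term, -0.89 (edgeR adjusted p = 0.0766). For St2 KO against WT it was -0.20 ± 0.210 (edgeR adjusted p = 0.878), and for Il25 KO against St2 KO -0.44 ± 0.177 (edgeR adjusted p = 0.340). The 3 comparisons with WT share the WT libraries.

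The Bcl2l1 call over all genotypes was not stable. It was lost in 11 of the 16 fits that left out 1 library, with adjusted p from 0.0121 to 0.115 over all 16, and without the set term (edgeR adjusted p = 0.0814). Those 11 libraries were WT 1, 2, 3 and 4, Alox5 KO 1, 2 and 4, Il25 KO 3 and St2 KO 2, 3 and 4. Without the 3 libraries low in B and plasma cell markers (Bcl2l1 at 56.1, 55.3 and 72.5 CPM), its edgeR adjusted p was 0.166 and the log2 fold change for Alox5 KO against WT was -0.76. That fit keeps no TS library of Alox5 KO, so the fold change rests on set TT (-0.76 in TT alone). It cannot separate plasma cell content from the loss of these libraries. Of the B and plasma cell list, 9 of 10 markers had counts and Pax5 was at 0. In bulk RNA, fewer cells that hold a transcript and less of it per cell cannot be told apart.

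The genes whose level was most like that of Bcl2l1, the member of smallest p, over the 16 libraries were Rilpl2 (Pearson r of log2 CPM 0.870), Bace1 (0.847), Ikbke (0.836), Ckap2 (0.803) and Zfhx2 (0.799), out of 11741 compared. These values are descriptive, since the libraries share genotypes and sets.

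**Figure D2:**
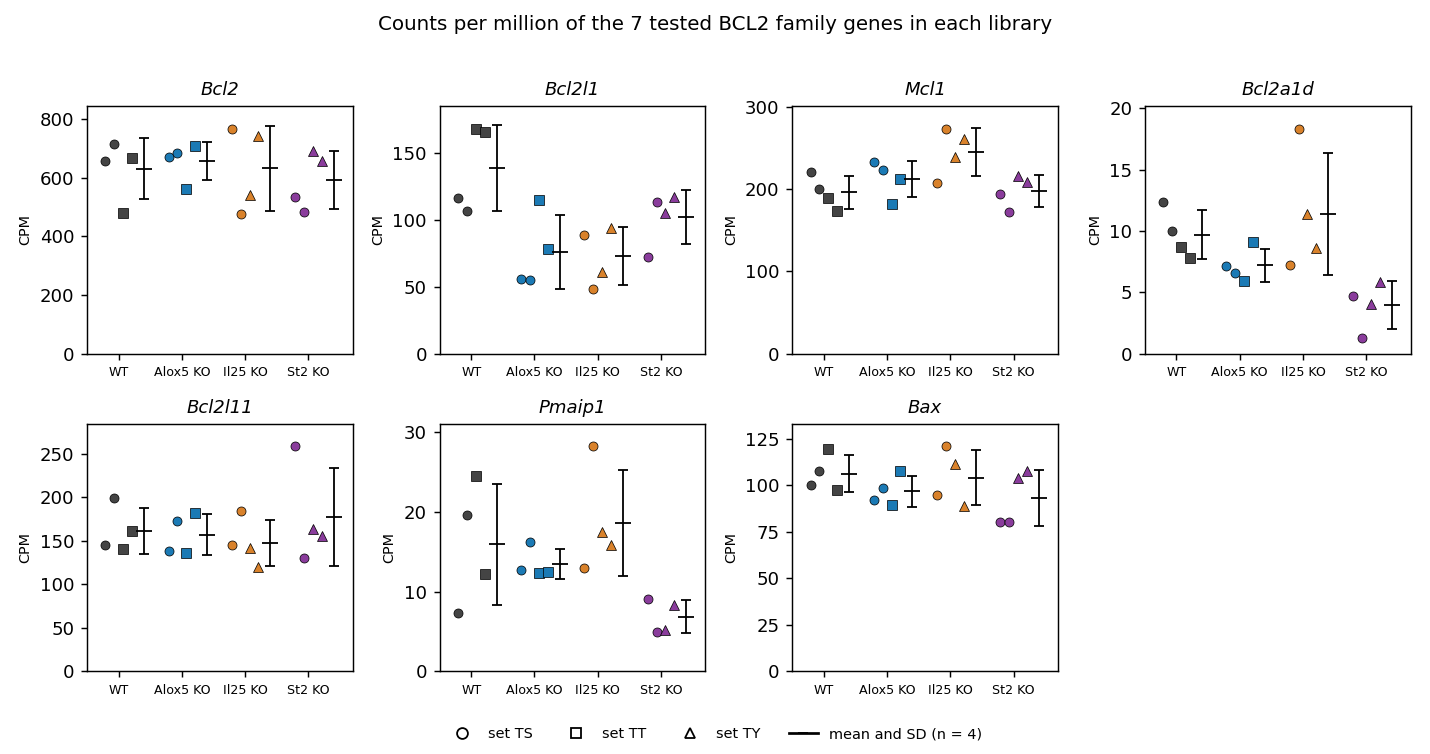
CPM (y axis, from 0) of the 7 tested genes by genotype. Points are libraries, marker shapes are the sample-code sets, and the bar is the mean with SD (n = 4). Bcl2l1 is highest in WT 3 and 4 (168.2 and 165.5 CPM), and Pmaip1 and Bcl2a1d are lowest in St2 KO, with means of 6.86 and 3.96 CPM.

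Bcl2 (chr1:106538178-106714274, minus strand), the founding guardian, had 477 to 766 CPM over the 16 libraries. Its group means were 630 ± 104 CPM in WT, 656 ± 65.1 in Alox5 KO, 631 ± 145 in Il25 KO and 591 ± 98.8 in St2 KO (SD, n = 4). All 4 genotypes overlapped and the test of any difference gave an edgeR adjusted p of 0.606. The value furthest from 0 was that of St2 KO against WT, at -0.31 on the log2 scale with a 95% interval of -0.67 to 0.04. Its exons overlap those of the antisense gene D630008O14Rik over 558 bases (6.09% of Bcl2 exon length). That gene had 1191 counts in all, against 26565 for Bcl2, and the libraries do not mark strand.

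Mcl1 (chr3:95658788-95663176, plus strand) encodes a guardian whose protein is short-lived. Its level in libraries 1 to 4 was 221.3, 200.5, 188.9 and 173.6 CPM in WT and 232.9, 223.0, 182.0 and 212.8 CPM in Alox5 KO. It was 207.2, 273.3, 239.5 and 261.2 CPM in the Il25 KO libraries and 193.9, 171.6, 215.9 and 208.8 CPM in St2 KO. In each set both Il25 KO libraries lay above both St2 KO libraries, although the full ranges overlapped. For Il25 KO against St2 KO the log2 fold change was 0.36 ± 0.102 (edgeR adjusted p = 0.113). Against WT it was 0.18 ± 0.127 in Il25 KO and -0.18 ± 0.128 in St2 KO (edgeR adjusted p = 0.724 and 0.813).

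Bcl2a1d was below 20 CPM in every library. It was at 12.4, 10.0, 8.7 and 7.8 CPM in WT, 7.2, 6.6, 5.9 and 9.1 CPM in Alox5 KO, 7.2, 18.3, 11.4 and 8.6 CPM in Il25 KO, and 4.7, 1.2, 4.0 and 5.8 CPM in St2 KO. The 4 St2 KO libraries, with 4 to 17 counts each, lay below all others. The log2 fold change was 1.58 ± 0.450 for Il25 KO against St2 KO (edgeR adjusted p = 0.116) and -1.41 ± 0.554 for St2 KO against WT (edgeR adjusted p = 0.575). As a sum of the 4 Bcl2a1 genes, the level was 13.7 ± 3.09 CPM in WT, 8.68 ± 1.89 in Alox5 KO, 15.1 ± 6.24 in Il25 KO and 5.46 ± 1.79 in St2 KO (SD, n = 4). The sum gave 1.51 ± 0.403 for Il25 KO against St2 KO (edgeR adjusted p = 0.0852) and -1.43 ± 0.492 for St2 KO against WT (edgeR adjusted p = 0.437).

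Bcl2a1b had 1 to 11 counts per library, with 10, 11, 3 and 6 in WT, 1, 3, 5 and 5 in Alox5 KO, 5, 9, 4 and 7 in Il25 KO and 2, 6, 1 and 3 in St2 KO. The genotypes overlapped. Its exons share 401 bases (49.1%) with the same-strand gene Gm29094, which had 1 count in all. The counting settings are not given, so reads from these bases may have gone uncounted, and the level of Bcl2a1b is uncertain.

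Of the effectors, Bax (chr7:45461697-45466898, minus strand) shares 192 exon bases (12.2%) with the same-strand gene Gm45808, which had 0 counts. Reads from these bases may have gone uncounted. Bax had group means of 106 ± 9.93 CPM in WT, 96.9 ± 8.27 in Alox5 KO, 104 ± 14.8 in Il25 KO and 93.2 ± 14.9 in St2 KO (SD, n = 4). The genotypes overlapped, and the edgeR adjusted p over all genotypes was 0.732. In St2 KO the TS libraries had 80.3 and 80.5 CPM and the TY libraries 104 and 108 CPM. The Il25 KO minus St2 KO difference of Bax in set TY was lower than in set TS by 0.53 ± 0.271 on the log2 scale (edgeR adjusted p = 1). Over all genes this test of the set difference called 0 by edgeR, with 572 at an unadjusted p under 0.05 and 1 called by DESeq2. The same test for Alox5 KO against WT called 0, with 474 at an unadjusted p under 0.05 and 3 by DESeq2.

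Bak1 (chr17:27019810-27029009, minus strand) had 1 to 14 counts per library, and a mean of 1.36 ± 0.398 CPM in WT, 1.70 ± 1.130 in Alox5 KO, 2.20 ± 1.70 in Il25 KO and 2.32 ± 1.74 in St2 KO (SD, n = 4). The TS libraries of all genotypes had 0.398 to 1.54 CPM. The TT libraries had 1.51 and 1.63 CPM in WT and 2.38 and 2.88 CPM in Alox5 KO, and the TY libraries of Il25 KO and St2 KO had 2.19 to 4.82 CPM. Its exons overlap those of the opposite-strand gene Ggnbp1, which had 83 counts in all against 80 for Bak1, so its level is uncertain.

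Among the BH3-only genes, Bcl2l11 (chr2:128126038-128162547, plus strand) encodes BIM, which binds all guardians. Its group means were 161 ± 26.6 CPM in WT, 157 ± 23.7 in Alox5 KO, 148 ± 26.6 in Il25 KO and 177 ± 56.3 in St2 KO (SD, n = 4). The genotypes overlapped, with an edgeR adjusted p of 0.846 over all genotypes. St2 KO 1 had the highest level, 258 CPM, and the other St2 KO libraries had 130 to 163 CPM.

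Pmaip1 (chr18:66458533-66465565, plus strand) encodes NOXA, which binds MCL1 and A1. Its level was 7.3, 19.7, 24.5 and 12.3 CPM in WT libraries 1 to 4 and 12.7, 16.2, 12.3 and 12.5 CPM in Alox5 KO. It was 13.0, 28.2, 17.5 and 15.8 CPM in the Il25 KO libraries and 9.1, 5.0, 5.1 and 8.3 CPM in St2 KO. All St2 KO libraries lay below all Il25 KO and Alox5 KO libraries, while WT 1 lay within the St2 KO range. The log2 fold change for Il25 KO against St2 KO was 1.48 ± 0.407 (95% interval 0.63 to 2.34; edgeR adjusted p = 0.0960). It missed the threshold by edgeR and passed by DESeq2 (adjusted p = 0.0273). For St2 KO against WT it was -1.05 ± 0.505 (edgeR adjusted p = 0.666).

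The Il25 KO and St2 KO values of Pmaip1, Mcl1 and Bcl2a1d leaned on single libraries. Without Il25 KO 2, which was highest of all for each of these 3 genes, the log2 fold changes for Il25 KO against St2 KO were 1.16, 0.25 and 1.133 (edgeR adjusted p = 0.367, 0.3999 and 0.425). Il25 KO 1 was the lowest Il25 KO library for each of these 3 genes, so leaving it out raises the Il25 KO mean. It also had the most epithelial marker RNA (299 CPM summed, against at most 56.0 in the other genotypes). Without it, Pmaip1 and Mcl1 passed (edgeR adjusted p = 0.0390 and 0.0396). The part of epithelial RNA in these values was not tested.

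Immediate early and dissociation genes moved with the St2 KO genotype. The summed level of 19 such genes was 3963 to 4461 CPM in the 4 St2 KO libraries and 5902 to 7945 CPM in the other 12. All 19 had a count in some library. Their part in the values of Pmaip1, Mcl1 and Bcl2a1d was not tested. Of 12 granulocyte and mast cell markers, 4 had a count, and Epx, S100a8, S100a9, Cxcr2 and Mcpt1 were at 0 in all libraries. The summed level was 7.76 to 16.1 CPM over St2 KO libraries and 10.8 to 27.7 CPM in Il25 KO. Summed macrophage and dendritic cell markers, of which 10 of 10 had a count, were at 43.6 CPM in Il25 KO 3, at 1.08 to 4.40 CPM in the other Il25 KO libraries and at 1.69 to 10.2 CPM in St2 KO. Without Il25 KO 3 the log2 fold changes of Pmaip1, Mcl1 and Bcl2a1d for Il25 KO against St2 KO were 1.47, 0.40 and 1.56.

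**Figure D3:**
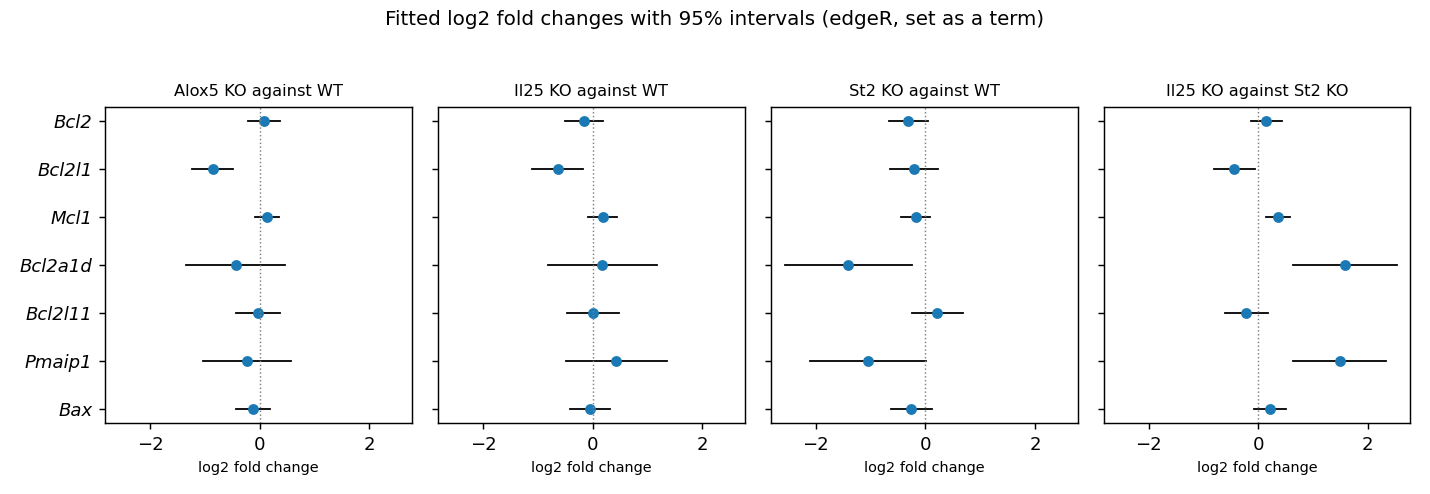
Fitted log2 fold changes (x axis) of the 7 tested genes in 4 comparisons, with 95% intervals (edgeR, set as a term). Intervals exclude 0 for Bcl2l1 in Alox5 KO (-0.86) and Il25 KO (-0.64) against WT, for Bcl2a1d in St2 KO against WT (-1.41), and for Bcl2l1, Mcl1, Bcl2a1d and Pmaip1 in Il25 KO against St2 KO. No single-pair value passed adjustment over all genes.

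Bbc3 (chr7:16308393-16318205, plus strand) encodes PUMA, a p53 target. It had 5, 9, 4 and 13 counts in WT, 1, 9, 0 and 1 in Alox5 KO, 0, 6, 4 and 9 in Il25 KO and 1, 7, 8 and 20 in St2 KO. The genotypes overlapped. Fitted with no filter on low counts, Bbc3, Bak1 and Bcl2a1b had adjusted p of 0.984, 0.994 and 0.874 over all genotypes (edgeR).

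**Figure D4:**
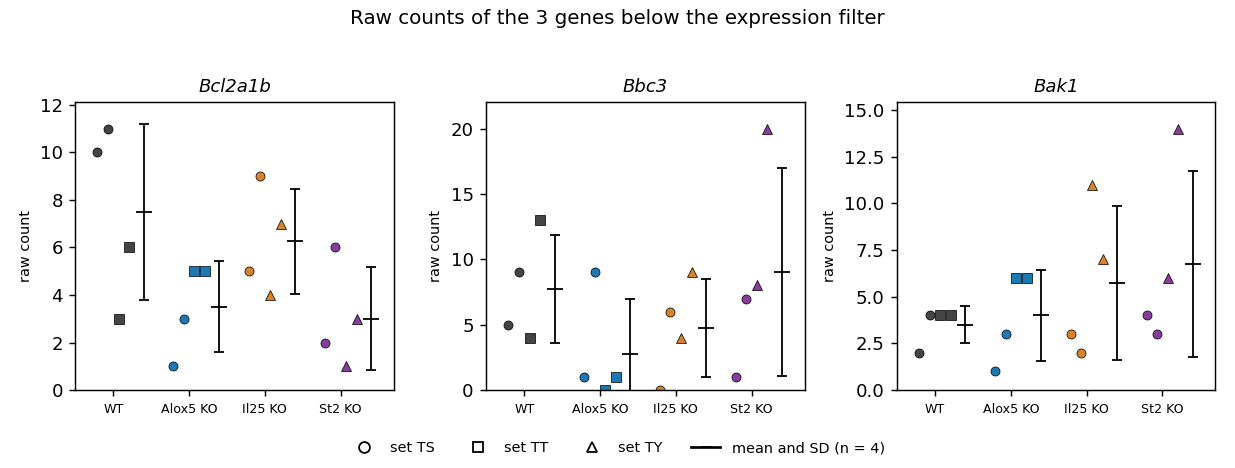
Raw counts (y axis, from 0) of Bcl2a1b, Bbc3 and Bak1, the genes below the filter on low counts, by genotype. Points are libraries, marker shapes are the sets, and the bar is the mean with SD (n = 4). No gene has more than 20 counts in any library.

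Ratios of member transcripts within a library were also described. Pmaip1 counts per 100 Mcl1 counts were 3.32 to 12.9 in WT, 5.47 to 7.28 in Alox5 KO, 6.05 to 10.3 in Il25 KO and 2.37 to 4.70 in St2 KO. Bcl2l1 counts per 100 Mcl1 counts were 52.5 to 95.3 in WT, 24.1 to 63.0 in Alox5 KO, 17.7 to 43.0 in Il25 KO and 37.4 to 66.3 in St2 KO. Il25 KO lay below WT in this ratio of guardian to guardian with no overlap, as it did for Bcl2l1 itself. Bcl2l11 counts per 100 Bcl2 counts, antagonist to guardian, were 22.0 to 29.3 in WT and 20.6 to 25.7 in Alox5 KO. They were 16.2 to 38.5 in Il25 KO and 23.6 to 48.5 in St2 KO, with overlap. Bax counts per 100 Bcl2 counts were 14.6 to 25.0 in WT, 13.7 to 15.9 in Alox5 KO, 12.0 to 25.4 in Il25 KO and 15.1 to 16.7 in St2 KO, with overlap.

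The other 16 BCL2 family genes of the list gave 10 tested genes, and 0 passed in any comparison by edgeR, as by DESeq2, with 2, 3, 0 and 2 of 10 at an unadjusted p under 0.05 in the 4 pairs, beside 7.17%, 9.30%, 7.49% and 11.3% of all tested genes. In St2 KO against WT, 10 of 10 had log2 fold changes below 0, with a median of -0.26 against 0.01 for all tested genes. Of these, 0 of 10 had an unadjusted p under 0.05. In Il25 KO against WT, 9 of 10 were below 0, with a median of -0.30 against 0.003. The numbers were 5 of 10 in Alox5 KO against WT (median -0.10 against 0.01) and 7 of 10 in Il25 KO against St2 KO (-0.20 against -0.01). Bmf, which encodes a BH3-only protein, had 13.96 ± 2.43 CPM in WT, 6.70 ± 1.78 in Alox5 KO, 3.19 ± 1.69 in Il25 KO and 8.65 ± 3.45 in St2 KO (SD, n = 4). It was named after its values were seen. The Il25 KO range, 0.815 to 4.68 CPM, and the Alox5 KO range, 5.16 to 9.10 CPM, both lay below the WT range, 11.6 to 17.3 CPM. Its log2 fold change was -2.10 ± 0.541 for Il25 KO against WT and -1.06 ± 0.380 for Alox5 KO against WT (edgeR adjusted p = 0.146 and 0.547), which missed the threshold, and its counts were 2 to 13 per library in Il25 KO.

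Around the family, genes that act downstream or upstream passed the edgeR test in Il25 KO against St2 KO and in no pair with WT, where DESeq2 called Egr1 and Pim1 in St2 KO against WT. In Il25 KO against St2 KO, 1.24% of all tested genes passed by edgeR. Of 19 genes of the apoptosome, caspases and their inhibitors, 1 passed there, Birc3, which encodes the inhibitor of apoptosis cIAP2. It had 448 ± 70.5 CPM in Il25 KO against 308 ± 13.1 CPM in St2 KO (SD, n = 4), a log2 fold change of 0.58 ± 0.101 (edgeR adjusted p = 0.00326). Of 13 genes listed as p53 and FOXO inputs, 1 passed, Egr1, an immediate early transcription factor. It had 128 ± 46.1 CPM in Il25 KO against 9.11 ± 6.87 CPM in St2 KO, a log2 fold change of 3.84 ± 0.425. Of that list, Trp53, Foxo1 and Foxo3 themselves did not pass. Egr1 is also one of the 19 immediate early and dissociation genes, whose summed level was lower in all St2 KO libraries than in the other 12. Of 11 survival cytokine genes, 1 passed by edgeR, Pim1, a kinase induced by STAT5, at 73.6 ± 20.4 and 20.7 ± 5.53 CPM, a log2 fold change of 1.86 ± 0.276 (edgeR adjusted p = 0.000811). DESeq2 also called Il2ra, a chain of the IL-2 receptor, in this comparison (edgeR adjusted p = 0.0871). Birc3, Egr1 and Pim1 also passed the edgeR test over all genotypes, as did 1.17% of all tested genes. Of 12 death receptor genes and 6 tested genes of MCL1 and BH3 protein turnover, 0 passed in any comparison by edgeR or DESeq2, with at most 4 of 12 and 1 of 6 at an unadjusted p under 0.05, both in the test over all genotypes, where 12.2% of all tested genes reached it. Il7r, the receptor chain for the survival cytokine IL-7, had edgeR adjusted p of 0.610 over all genotypes and a mean of 1203 CPM.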

How the data were processed

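RNA-seq libraries of sorted duodenal ILC2 (Nextera XT, which does not mark strand, per the labels' protocols) were analysed from 1 deposited table of raw counts per gene. The submitters' processing notes name GRCm38, STAR 2.4.2a, the tool HTSeq 0.4.1 and Picard 1.134, without settings. Of 53471 rows, 6 with a repeated identifier were dropped. Rows without a symbol held 0.184% of counts. Libraries were grouped by genotype from the labels, and replicate pairs within a genotype differed beyond counting noise (chi-square per degree of freedom 4.61 to 10.4). Counts were tested with edgeR 4.0.16 (R 4.3.3; quasi-likelihood, robust, TMM scaling, default expression filter with a minimum count of 10), with genotype and set in 1 model of all 16 libraries, and Benjamini-Hochberg adjustment over 11742 genes at 0.05. The SE is the log2 fold change divided by the square root of F. Scripts were tested on simulated data. Alternatives included DESeq2 1.42.0, other scalings, no filter, no set term, subsets and single libraries left out. The members and gene lists were chosen with earlier results of these data known. Genes named outside the members were the called genes of each list, up to 4 by adjusted p, and the 5 most alike the member of smallest p; Bmf, Il7r and Il2ra were named outside this rule. Exon lengths, positions and coding sequences came from GENCODE on GRCm38.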

Additional observations from a re-analysis of the deposited data

Results flagged for a closer look

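In 3 of 40 groups of 4 libraries, 1 library stood apart from the others by a gap test (Dixon's, on the gap to the nearest library over the whole range), which chance alone gives in about 1 of 20 groups. Bak1 in WT 1 was at 0.773 CPM, against 1.51 to 1.63 CPM in the other WT libraries, a difference of 2 counts against 4. Bbc3 in Alox5 KO 2 was at 3.48 CPM, against 0 to 0.479 CPM in the others, from 9 counts against at most 1. Pmaip1 in Alox5 KO 2 was at 16.2 CPM, against 12.3 to 12.7 CPM in the other Alox5 KO libraries.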

How the results depend on the processing

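Over the alternatives, 728 of 774 refitted member fold changes kept their direction and side of the threshold, 7 passed it and 39 changed sign, all with an adjusted p of at least 0.85. No member was called in a pair in the main setting, so keeping that side meant staying uncalled, and no call could be lost. Over all genotypes, Bcl2l1 was the 1 member called in the main setting, and it was also called with DESeq2 size factors, with column totals, by DESeq2 and with the Bcl2a1 paralogs summed. It was lost (0 members called) in edgeR's legacy mode, with no expression filter, with no set term, in set TS alone, without the TY libraries and without the 3 libraries with low B and plasma cell markers. Its adjusted p ranged from 0.00124 (DESeq2) to 0.541 (set TS alone). With the replicate number as a replicate block beside the set term, 0 members were called and its adjusted p was 0.0751. Same-number correlations within a set were -0.06 to 0.20, beside -0.08 to 0.16 for different numbers. These values do not show that the numbers pair the libraries, and cannot exclude it. The block changed no other member's call. Leaving out 1 library gave 0 to 1 members over all genotypes, 0 to 1 in Alox5 KO against WT (1 without Il25 KO 1 or 2) and 0 to 2 in Il25 KO against St2 KO (2 without Il25 KO 1). Of all tested genes, those fits called 92 to 169, 6 to 20 and 79 to 179. DESeq2 and a fit of only the compared genotypes each gave 1 in Alox5 KO against WT, and DESeq2 gave 1 in Il25 KO against St2 KO. The cause was not tested.

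Sign changes were these. For Alox5 KO against WT, Bcl2 was -0.015 in set TS alone, Pmaip1 0.11 in set TS alone, and Bcl2l11 0.090 in set TT alone and 0.083 without the plasma-low libraries. For Il25 KO against WT, Bcl2 was 0.036 with no set term, and Bcl2l11 was -0.029 with column totals, -0.092 with no set term, -0.033 with only the compared genotypes, -0.034 in set TS alone and -0.16 without the plasma-low libraries. Bax there was 0.0036 with no set term, 0.088 with only the compared genotypes, 0.088 in set TS alone and 0.084 without the TY libraries. For St2 KO against WT, Bcl2l11 was -0.18 without the plasma-low libraries. For Il25 KO against St2 KO, Bcl2 was -0.032 and Bax -0.048 in set TY alone, and Bcl2l11 was 0.023 without the plasma-low libraries. With 1 library left out, the ranges that crossed 0 for Alox5 KO against WT were -0.030 to 0.16 for Bcl2, -0.15 to 0.093 for Bcl2l11 and -0.50 to 0.080 for Pmaip1. For Il25 KO against WT they were -0.63 to 0.57 for Bcl2a1d, -0.14 to 0.19 for Bcl2l11, -0.26 to 0.018 for Bax and -0.099 to 0.81 for Pmaip1. For Bcl2l11 in St2 KO against WT the range was -0.12 to 0.51. For Il25 KO against St2 KO it was -0.015 to 0.27 for Bcl2 and -0.41 to 0.019 for Bcl2l11.

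Numbers of called genes over all alternatives were 43 to 299 over all genotypes (137 in the main setting), 3 to 52 for Alox5 KO against WT (12), 9 to 95 for Il25 KO against WT (49), 18 to 67 for St2 KO against WT (35) and 29 to 246 for Il25 KO against St2 KO (146). For the set differences they were 0 to 4 and 0 to 2. Depth limits Bcl2a1b, Bak1 and Bbc3, with at most 20 counts per library.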
